A study of Mus musculus with 12 samples.

Results

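The replication-dependent histone genes were examined in the transcriptomes of mouse regulatory T cells (Treg). Members were all genes whose symbol in the deposited table begins with Hist1h, Hist2h, Hist3h or Hist4h, and 68 of the 36222 genes met that rule. They comprised 6 linker histone H1 genes, 18 H2A, 19 H2B, 12 H3 and 13 H4 genes. By name and position, 54 are Hist1 genes on chromosome 13, 10 Hist2 genes on chromosome 3, 3 Hist3 genes on chromosome 11, and Hist4h4 stands alone on chromosome 6. The rule used gene symbols and no measured value, and it kept Hist3h2bb-ps, which is named as a pseudogene.

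The libraries fell into 4 groups. Ikzf1 encodes Ikaros, a zinc-finger transcription factor of lymphocytes, and the cKO mice carried 2 floxed Ikzf1 alleles that are deleted in cells expressing Foxp3-YFP-Cre, a Cre recombinase with a fluorescent reporter that is expressed from the Treg gene Foxp3. WT mice carried the same Foxp3-YFP-Cre, and YFP+ Treg were sorted from the spleens of individual mice. RNA was taken directly from the sorted cells (ex vivo) or after 4 h on plate-bound anti-CD3 and anti-CD28, each at 1 µg/ml (stimulated). Each genotype had 3 libraries in each state, 12 in all. The comparisons asked how loss of Ikaros altered the Treg transcriptome at rest and after stimulation, what stimulation did in each genotype, and whether the response to stimulation depended on genotype.

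Replication-dependent histone genes supply the bulk of the core histones H2A, H2B, H3 and H4 and of the linker histone H1 while DNA is copied, and their mRNAs accumulate in S phase and are destroyed when replication ends. Most of these mRNAs carry no poly(A) tail and end instead in a conserved stem-loop, which is bound by the stem-loop binding protein Slbp and cut with the help of the U7 snRNP. The genes lie in clusters, mostly without introns, and are switched on by the coactivator Npat. These libraries were made from total RNA after removal of ribosomal RNA, so that transcripts without a tail could be counted. In bulk RNA, fewer cells in S phase and less histone RNA per cell cannot be told apart.

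The 3′ stem-loops are shown first, because they are what sets these mRNAs apart and because several H4 genes differ in them. A perfect stem of 6 base pairs around a loop of 4 bases was found within 150 nt after the stop codon in 61 of the 68 genes, 22 to 59 nt after it (median 31). The 5′ side of the stem had to begin with GG and end in T. The examples below are read 5′ to 3′ on the gene's strand of NCBIM37 (mm9), with stem and loop in capitals and 5 bases on either side.
Hist1h1c (H1, chr13:23831376-23831401, +): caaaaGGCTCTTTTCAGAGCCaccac
Hist1h2bh (H2B, chr13:23634792-23634817, -): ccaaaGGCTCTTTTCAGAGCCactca
Hist1h3a (H3, chr13:23853754-23853779, -): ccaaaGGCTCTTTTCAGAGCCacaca
Hist1h2bb (H2B, chr13:23839067-23839092, +): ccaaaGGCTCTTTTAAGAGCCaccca
Hist1h4d (H4, chr13:23673814-23673839, +): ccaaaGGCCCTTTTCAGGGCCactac
Hist1h4b (H4, chr13:23849230-23849255, +): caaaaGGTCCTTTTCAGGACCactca
Hist1h4a (H4, chr13:23852664-23852689, -): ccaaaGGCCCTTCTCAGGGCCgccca
The core of Hist1h1c, Hist1h2bh and Hist1h3a was the commonest, in 37 genes. The core of Hist1h2bb stood in 9 genes and that of Hist1h4d in 8, all of them H4 genes. Hist1h4b shared its core with Hist1h4j alone, and the core of Hist1h4a was found in no other member. No such stem-loop was found for Hist1h2al, Hist1h2an, Hist2h2bb or Hist2h2be. None was found either for Hist1h2aj, Hist2h3c2 and Hist3h2bb-ps, which are annotated as pseudogenes. The search began only at an annotated stop codon, so a gene without one could not yield a stem-loop.

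Values below are TPM, a relative abundance corrected for exon length, divided by a scaling factor per library (0.73 to 1.21) that brings the 12 libraries to a common centre. They are called TPM hereafter unless named as deposited. A gene was tested when its mean reached 5 TPM in at least 1 group, which 58 of the 68 histone genes and 13318 genes in all did. Of the 58, 49 reached it in every group, and the other 9, with Hist1h2ac, Hist1h2ag, Hist1h2ba and Hist1h2bp among the called ones, passed only through the groups in which they were high. Changes are differences of log2(TPM + 1) with their standard errors (SE), which understate the fold change of genes near 1 TPM. A gene was called changed when its adjusted p from limma, after Benjamini-Hochberg adjustment over all tested genes, was below 0.05.

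The libraries held 8208659 to 20247649 reads assigned to genes, of which 9493 to 54726 fell on histone genes, so counting error of their sum was small beside the spread between libraries. This does not extend to scarce single members such as Hist1h2ac, Hist1h2ag, Hist1h2ba and Hist1h2bp. Deposited Ikzf1 was 125, 83.8 and 106 TPM in WT ex vivo and 44.3, 38.8 and 42.6 in cKO ex vivo, and after stimulation 74.7, 66.4 and 83.4 in WT and 31.6, 26.9 and 17.04 in cKO, so no cKO library reached a WT library in the same state. WT ex vivo library 3 stood apart: its Xist was 179 TPM against 0.624 to 1.36 in the other 11 libraries, and its Y-linked Ddx3y 0.0970 against 14.7 to 52.8, as in a library from a female among libraries from males. Gm10800, a single gene of repetitive sequence, took 17.7% to 39.8% of TPM in the ex vivo libraries and 32.6% to 55.9% in the stimulated ones. Summed over the Treg markers, the level was 1064 to 2086 TPM, against at most 27.97 for the markers of B cells, 14.5 for CD8 T cells, 7.37 for NK cells, 25.6 for myeloid cells and 11.3 for erythroid cells. The myeloid sum was 12.2 to 17.3 TPM ex vivo and 18.9 to 25.6 after stimulation, and of its 5 genes only Cd68 reached the level tested, with a rise in WT (0.86) and in cKO (0.65). Of the 5 B cell genes only Cd79b was tested, and it fell on stimulation in WT (-0.68) and was higher in cKO than in WT after stimulation (0.96). The part of such cells in the members' changes was not tested. Among 1716 olfactory and vomeronasal receptor genes, which serve as a background, the median was 0.556 to 1.15 deposited TPM.

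Histone mRNA made up a small and variable part of the transcriptome. The 68 genes together took 0.202% to 0.653% of the deposited TPM. The scaled sums were 4412, 3638 and 6793 TPM in WT ex vivo and 6203, 5002 and 5775 in cKO ex vivo. After stimulation they were 4860, 3646 and 5163 TPM in WT and 4726, 3332 and 2760 in cKO. The WT ex vivo and WT stimulated sums overlapped widely, whereas every cKO stimulated sum lay below every cKO ex vivo sum. These sums are given as a description and were not tested. WT ex vivo library 3 was the highest of its group for 53 of the 58 tested members, WT stimulated library 2 the lowest of its group for 51, and cKO stimulated library 1 the highest of its group for 51, so members moved together within a group and single libraries weighed on each comparison.

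**Figure D1:**
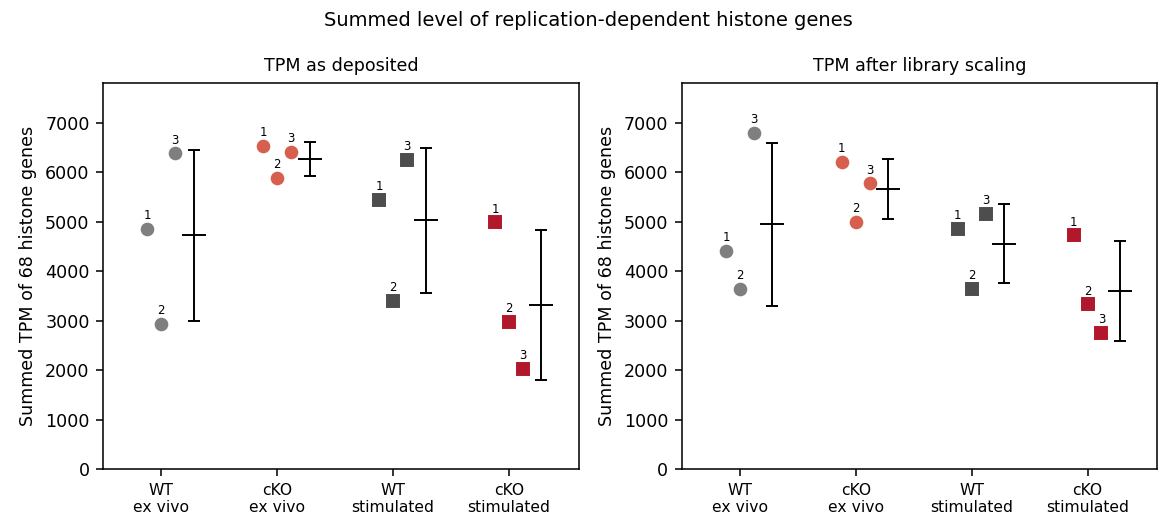
Summed TPM of the 68 histone genes (vertical axis) in each of the 12 libraries, by group, as deposited (left) and after scaling (right). Points carry the replicate number and black bars show the mean ± SD (n = 3). After scaling, the 3 cKO stimulated sums, 2760 to 4726 TPM, lie below the 3 cKO ex vivo sums, 5002 to 6203 TPM, while the WT groups overlap.

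The make-up of the histone pool differed with stimulation more evenly than its size. H2B genes gave 21.9% to 24.5% of summed histone TPM in the 6 ex vivo libraries and 13.2% to 16.6% in the 6 stimulated libraries. H4 genes gave 40.2% to 43.4% ex vivo and 48.7% to 54.1% after stimulation. For both families the 2 ranges did not touch, in either genotype. The H4 to H2B ratio went from 1.92 ± 0.0707 (SD, n = 3) to 3.30 ± 0.541 with stimulation of WT Treg, and from 1.69 ± 0.0468 to 3.52 ± 0.434 in cKO. The shares of H1 (14.4% to 17.4% ex vivo, 14.4% to 17.9% stimulated), H2A (6.33% to 8.64%, 6.03% to 6.99%) and H3 (11.97% to 12.4%, 9.82% to 12.8%) overlapped between the states. Shares within a library do not depend on the scaling factors.

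**Figure D2:**
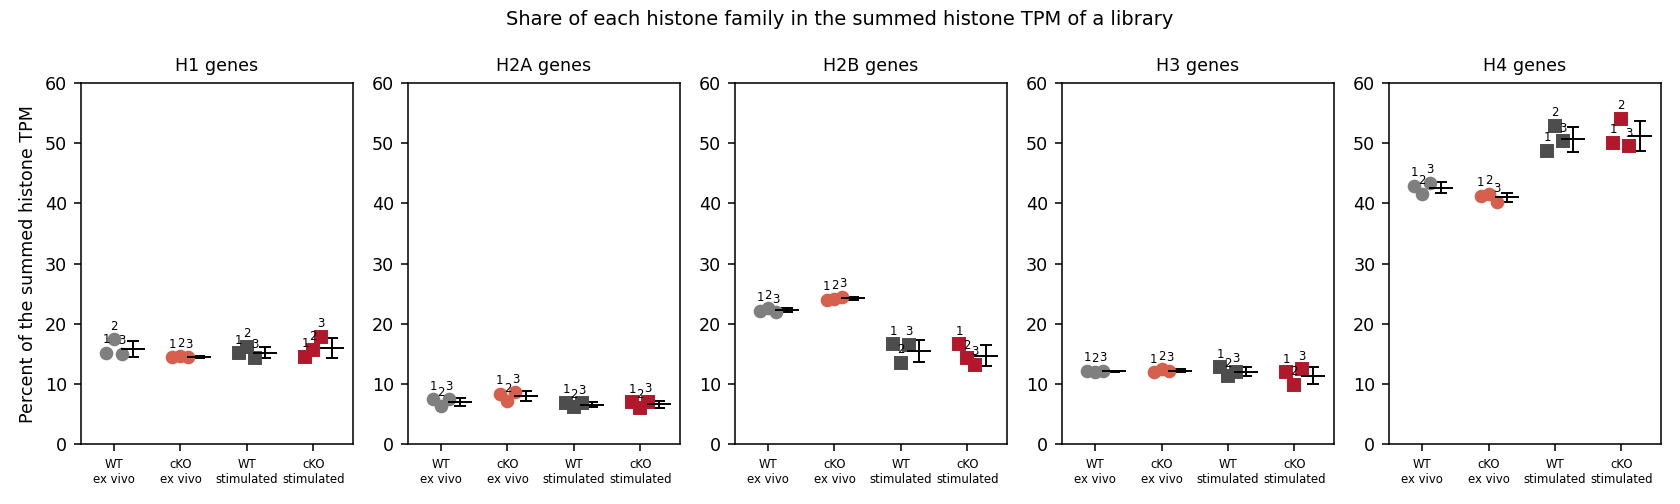
Percent of summed histone TPM (vertical axis) that fell on H1, H2A, H2B, H3 and H4 genes in each library, by group, with replicate numbers as points. H2B takes 21.9% to 24.5% ex vivo and 13.2% to 16.6% after stimulation, and H4 takes 40.2% to 43.4% and 48.7% to 54.1%.

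Stimulation of cKO Treg lowered most of the histone genes that were called. Of the 58 tested members, 32 fell and 1 rose, and 25 did not pass the test. The falls include Hist1h2ac, Hist1h2ag and Hist1h2bp and the rise is Hist1h2ba, which passed the minimum only through groups in which they were high. Among all tested genes 26.5% were called lower and 17.3% higher, against 55.2% and 1.72% of the members. After quantile normalization 13 members fell and 6 rose. Of the 13318 tested genes 5201 were then called, 2293 of them higher. The members' share of falls was then close to that of all tested genes. The 32 falls ranged from -0.56 to -1.86 on the log2 scale with a median of -1.12, and the median over all 58 members was -0.88, against -0.01 over all tested genes. H2B was the family with the most calls, with 14 of 17 tested genes lower and 1 higher (median -1.13). H2A had 6 of 13 lower (median -0.89), H3 5 of 10 (-0.93), H1 3 of 5 (-0.80) and H4 4 of 13 (-0.19). The medians of H1, H2A, H2B and H3 in cKO were negative under every scaling tried, but after quantile normalization H1 shrank to -0.10 and H3 to -0.41. The H4 median turned to 0.28 after quantile normalization and was -0.74 with genes down to 1 TPM, -0.52 on TPM as deposited and -0.04 without cKO stimulated library 3.

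In WT Treg the response was mixed. Stimulation called 5 members higher (Hist1h1d, Hist1h3h, Hist1h4b, Hist1h4h, Hist2h3b) and 6 lower (Hist1h1c, Hist1h2ac, Hist1h2bf, Hist1h2bp, Hist1h3a, Hist1h4a). Over all tested genes 12.7% were called higher and 19.3% lower in this fit, and the members' 8.62% and 10.3% lay below both. After quantile normalization 15 members were higher and 2 lower, with 6 of these 11 calls among them. Of the 13318 tested genes 3983 were then called, 2062 of them higher, so the members' share of rises lay above that of all genes. With genes down to 1 TPM or with no filter 0 members were higher and 2 lower, so all 5 rises were lost. On TPM as deposited 3 were higher and 1 lower. The median over members was -0.21, and the family medians were -0.31 for H2B, -0.29 for H2A, -0.21 for H3, 0.20 for H4 and 0.26 for H1, of which H3 turned to 0.07 after quantile normalization and H4 to -0.06 when genes down to 1 TPM entered the scaling. Without WT ex vivo library 3 the WT medians of H2A and H3 were 0.03 and 0.11. All 6 members lower in WT were lower in cKO too, no member rose in both, and 26 of the 32 lower in cKO were not called in WT.

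The difference between those responses was tested as the interaction of genotype and stimulation, and no member passed (smallest adjusted p = 0.156 in limma), where 1.1% of all tested genes did. At an unadjusted p below 0.05 there were 12 members, 1 positive and 11 negative, or 1.72% and 19% of the members, against 5.6% and 8.86% of all tested genes. Estimates were negative for 52 of the 58 members, from -1.74 for Hist1h2ag to 1.19 for Hist1h2ba, with a median of -0.63. The larger number of calls in cKO is therefore not shown to be a difference between the genotypes.

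Single libraries carried weight in both responses. Without cKO stimulated library 3 the members lower in cKO numbered 14, without cKO ex vivo library 1 18, and without cKO ex vivo library 3 20. All genes called in cKO in those fits numbered 4473, 4131 and 4352, of which 1839, 1425 and 1518 were higher. Without cKO stimulated library 3 the members' share of falls lay nearer to that of all tested genes than in the main fit. Without WT ex vivo library 3 the WT response was 9 higher and 1 lower with a median of 0.07, and without WT stimulated library 2 it was 6 higher and 1 lower with a median of 0.03. All genes called in WT in those fits numbered 3480 and 3417, of which 1371 and 1216 were higher. Leaving out WT stimulated library 1 or 3 left 1 higher and 3 lower, leaving out WT ex vivo library 1 left 1 higher and 4 lower, and leaving out WT ex vivo library 2 left 1 higher and 7 lower with a median of -0.32. Since all groups share one estimate of the spread, leaving out cKO ex vivo library 1 or 3 changed the WT counts too, to 3 higher and 4 lower and to 3 and 3, and leaving out cKO stimulated library 3 gave 3 higher and 8 lower. In cKO, 13 falls were called whichever of the 12 libraries was left out (Hist1h1a, Hist1h1c, Hist1h2ac, Hist1h2ae, Hist1h2bb, Hist1h2bg, Hist1h2bh, Hist1h2bm, Hist1h2bn, Hist1h3i, Hist1h4a, Hist2h2bb and Hist3h2ba), and in WT this held for the rise of Hist1h4b, and for Hist1h2bp, which passed the minimum only through its ex vivo groups. Hist1h2ac too passed it only through groups in which it was high, and these fits kept the same tested genes. The rise of Hist1h4b was not called with genes down to 1 TPM or with no filter, where 0 members were called higher in WT.

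**Figure D3:**
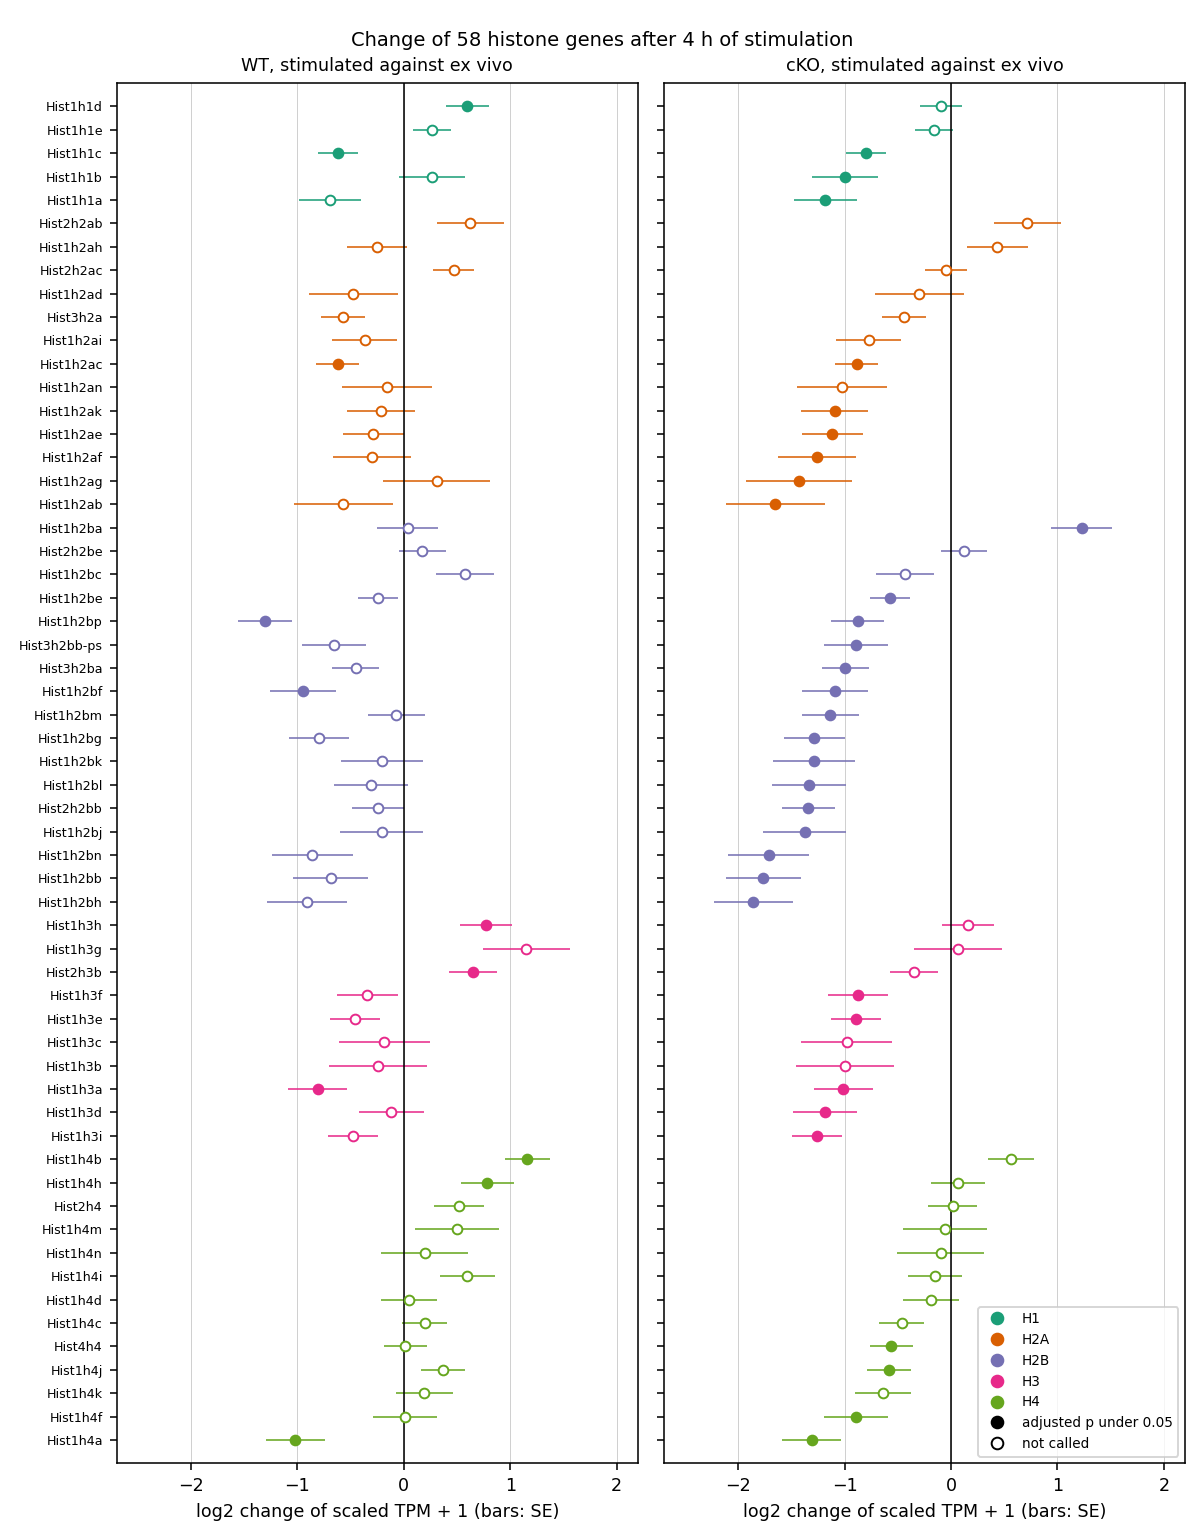
Change on stimulation (log2, horizontal axis) of the 58 tested histone genes in WT and in cKO, ordered by family. Bars show the SE and filled points were called at an adjusted p below 0.05; in cKO 32 members are called lower and 1 higher, in WT 6 lower and 5 higher.

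Linker histones were among the most abundant members. Hist1h1c, the gene of subtype H1.2 (chr13:23830676-23832235, + strand), measured 323, 304 and 520.1 TPM in ex vivo WT Treg, 387, 297 and 327 in their cKO counterparts, then 250.4, 229.6 and 243 in WT and 219, 190.0 and 171 in cKO with stimulation. All 6 stimulated libraries lay below all 6 ex vivo libraries. It fell by 0.62 ± 0.19 (SE) in WT (adjusted p = 0.028 in limma), a change of 0.20 after quantile normalization, and by 0.80 ± 0.19 in cKO (adjusted p = 0.0068). Hist1h1a (chr13:23855537-23856283, + strand) had 45.6, 34.8 and 61.9 TPM in WT ex vivo and 29.6, 22.7 and 32.9 with stimulation, and 50.7, 44.5 and 54.6 ex vivo and 32.2, 12.8 and 23.5 with stimulation in cKO. Here too the stimulated and ex vivo libraries did not overlap, and the fall was called in cKO (-1.18 ± 0.29, adjusted p = 0.0084) but not in WT (-0.70 ± 0.29, adjusted p = 0.092).

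Hist1h1b, the gene of subtype H1.5 (chr13:21871752-21872494, - strand), showed another pattern. It measured 58.2, 49.7 and 74.3 TPM ex vivo in WT and 119, 104 and 121 in cKO, and 91.6, 46.7 and 87.6 in WT and 91.0, 49.99 and 39.9 in cKO once stimulated. The 3 cKO ex vivo libraries were the highest of all 12. The gene fell in stimulated cKO Treg (-0.9997 ± 0.31, adjusted p = 0.024) and was not called in WT (0.26 ± 0.31). Hist1h1d measured 17.0, 19.3 and 30.8 TPM in ex vivo WT Treg, 31.4, 26.2 and 30.2 in their cKO counterparts, then 38.0, 26.9 and 36.1 in WT and 31.1, 24.8 and 26.3 in cKO with stimulation. It rose in WT (0.60 ± 0.20, adjusted p = 0.041) although WT ex vivo library 3 overlapped the stimulated libraries, and it did so in 5 of the 12 fits that left out a library. Hist1h1e had 224, 222 and 333 TPM in WT ex vivo and 324, 264 and 339.9 with stimulation, and 308, 258 and 299.6 ex vivo and 310.1, 243 and 229 with stimulation in cKO, and its groups overlapped in every comparison, though quantile normalization gave a called rise of 0.63 in cKO. Hist1h1t, the testis form, was below the level tested.

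The H2A genes gave the smallest share of histone TPM of the core histone families. Hist1h2ak (chr13:21845264-21845776, - strand), the highest of them, measured 129, 78.3 and 169 TPM ex vivo in WT and 172, 144 and 189 in cKO, and 117, 76.6 and 121 in WT and 120.5, 59.5 and 65.2 in cKO once stimulated. Hist1h2ab (chr13:23842957-23843462, + strand) had 63.3, 39.9 and 110.0 TPM in ex vivo WT Treg, 119, 59.2 and 120.0 in their cKO counterparts, then 53.2, 27.2 and 57.8 in WT and 53.0, 24.3 and 19.6 in cKO with stimulation. Both fell in cKO, by 1.09 ± 0.32 (adjusted p = 0.018 in limma) and by 1.65 ± 0.46 (adjusted p = 0.015), with no overlap between the cKO groups, and both overlapped between the WT groups. Hist1h2ac (chr13:23773336-23775817, - strand) was scarce, with 7.04, 7.49 and 11.3 TPM in WT ex vivo and 5.39, 5.41 and 4.62 with stimulation, and 10.505, 6.14 and 8.498 ex vivo and 4.59, 4.14 and 3.31 with stimulation in cKO. Its 6 stimulated libraries were below its 6 ex vivo libraries, with falls of 0.62 ± 0.20 in WT (adjusted p = 0.037) and 0.89 ± 0.20 in cKO (adjusted p = 0.0055).

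A further 3 H2A genes fell in cKO and overlapped in WT. Hist1h2ae measured 21.4, 14.7 and 34.7 TPM ex vivo in WT and 34.1, 23.3 and 29.6 in cKO, and 15.0, 19.5 and 20.1 in WT and 17.0, 9.40 and 12.8 in cKO once stimulated. Hist1h2af had 22.1, 21.6 and 52.1 TPM in ex vivo WT Treg, 56.2, 37.7 and 41.1 in their cKO counterparts, then 27.1, 16.7 and 29.0 in WT and 26.1, 19.0 and 11.5 in cKO with stimulation. Their falls in cKO were -1.11 ± 0.28 (adjusted p = 0.0096) and -1.26 ± 0.37 (adjusted p = 0.018). Hist1h2ag measured 10.1, 4.29 and 13.1 TPM in WT ex vivo and 11.8, 5.70 and 17.3 with stimulation, and 16.3, 11.6 and 11.1 ex vivo and 8.26, 4.59 and 1.622 with stimulation in cKO. It fell by 1.43 ± 0.50 in cKO (adjusted p = 0.039), in 6 of the 12 fits that left out a library. Hist2h2ac moved otherwise: it measured 31.2, 19.4 and 32.0 TPM ex vivo in WT and 37.7, 26.7 and 28.4 in cKO, and 38.9, 34.3 and 39.8 in WT and 31.5, 33.5 and 24.6 in cKO once stimulated. The WT stimulated libraries lay above the WT ex vivo libraries (0.47 ± 0.19, adjusted p = 0.09, not called), and the cKO groups overlapped.

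H2B genes showed the deepest falls. Hist1h2bh (chr13:23634793-23635228, - strand) measured 116, 80.3 and 135 TPM in ex vivo WT Treg, 136, 117 and 133 in their cKO counterparts, then 58.8, 39.4 and 79.3 in WT and 66.3, 31.3 and 20.2 in cKO with stimulation. All stimulated libraries were below all ex vivo libraries, and the fall was 1.86 ± 0.38 in cKO (adjusted p = 0.0028 in limma) and -0.91 ± 0.38 in WT (adjusted p = 0.087, not called). Hist1h2bb (chr13:23838603-23839071, + strand) had 122, 115 and 220.2 TPM in WT ex vivo and 111, 62.9 and 104 with stimulation, and 246, 203 and 243 ex vivo and 115, 60.8 and 42.8 with stimulation in cKO. Within each genotype the stimulated libraries were lower, by 1.76 ± 0.36 in cKO (adjusted p = 0.0027), with -0.69 ± 0.36 in WT (adjusted p = 0.16, not called). Hist1h2bg (chr13:23663265-23663882, + strand), the highest H2B gene, measured 224, 192 and 347 TPM ex vivo in WT and 329.8, 259 and 317 in cKO, and 158, 102 and 176 in WT and 169, 126 and 87.2 in cKO once stimulated. Its states did not overlap either (-1.28 ± 0.28 in cKO, adjusted p = 0.0047, and -0.80 ± 0.28 in WT, adjusted p = 0.053).

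Hist1h2bn, which shares most of its sequence with other H2B genes, measured 211, 144 and 326 TPM in ex vivo WT Treg, 289.9, 190.3 and 259 in their cKO counterparts, then 134, 80.9 and 152 in WT and 124, 65.9 and 48.1 in cKO with stimulation. It fell by 1.71 ± 0.38 in cKO (adjusted p = 0.0046), and WT ex vivo library 2 overlapped the WT stimulated libraries. Hist2h2bb (chr3:96073644-96082924, + strand), whose sequence is unique in the genome at the read length, measured 57.3, 55.8 and 90.5 TPM in WT ex vivo and 60.7, 43.3 and 66.2 with stimulation, and 95, 89.4 and 101 ex vivo and 53.9, 31.1 and 29.9 with stimulation in cKO. The cKO groups stood well apart (-1.34 ± 0.25, adjusted p = 0.0017) and the WT groups overlapped (-0.24 ± 0.25). Hist1h2bm had 29.4, 32.9 and 43.0 TPM ex vivo in WT and 53.5, 48.9 and 55.0 in cKO, and 41.5, 22.5 and 38.2 in WT and 35.8, 19.1 and 18.6 in cKO once stimulated. It fell by 1.13 ± 0.27 in cKO (adjusted p = 0.0067) from cKO ex vivo levels that all exceeded the WT ex vivo ones.

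A set of 3 H2B genes had cKO ex vivo levels near or above the WT ones and low cKO stimulated levels. Hist1h2bj measured 33.1, 41.0 and 50.04 TPM in ex vivo WT Treg, 61.5, 67.6 and 56.7 in their cKO counterparts, then 49.5, 18.5 and 47.0 in WT and 39.3, 23.0 and 13.6 in cKO with stimulation. Hist1h2bk measured 24.9, 27.6 and 41.0 TPM in WT ex vivo and 36.0, 13.9 and 36.1 with stimulation, and 44.0, 48.8 and 38.2 ex vivo and 29.6, 11.8 and 14.4 with stimulation in cKO. Hist1h2bl measured 49.1, 38.9 and 89.1 TPM ex vivo in WT and 79.8, 64.0 and 72.4 in cKO, and 47.6, 30.7 and 60.9 in WT and 43.4, 25.5 and 19.6 in cKO once stimulated. For all 3 the cKO groups were apart and the WT groups overlapped, and the falls in cKO were -1.38 ± 0.39 (adjusted p = 0.017), -1.29 ± 0.38 (adjusted p = 0.02) and -1.33 ± 0.35 (adjusted p = 0.011). Hist1h2bf had 26.1, 24.3 and 39.5 TPM in ex vivo WT Treg, 38.0, 32.6 and 39.0 in their cKO counterparts, then 15.1, 9.31 and 22.1 in WT and 22.6, 18.5 and 10.8 in cKO with stimulation. This gene fell in both genotypes, by 0.95 ± 0.31 in WT (adjusted p = 0.038) and by 1.09 ± 0.31 in cKO (adjusted p = 0.016).

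Smaller H2B levels were found for the following genes. Hist1h2be measured 14.5, 11.99 and 19.96 TPM in WT ex vivo and 14.5, 11.01 and 12.7 with stimulation, and 18.8, 17.6 and 16.2 ex vivo and 14.9, 9.42 and 10.7 with stimulation in cKO. Hist3h2ba (chr11:58762413-58763032, + strand) measured 20.03, 16.3 and 23.8 TPM ex vivo in WT and 24.9, 18.4 and 22.9 in cKO, and 17.6, 10.9 and 14.9 in WT and 14.3, 10.02 and 8.01 in cKO once stimulated. Hist3h2bb-ps measured 17.7, 13.3 and 22.3 TPM in ex vivo WT Treg, 18.3, 11.96 and 16.6 in their cKO counterparts, then 11.9, 9.70 and 10.7 in WT and 11.3, 9.88 and 4.11 in cKO with stimulation. All 3 fell in cKO (-0.57 ± 0.19, -0.995 ± 0.22 and -0.89 ± 0.30, adjusted p = 0.032, 0.0047 and 0.033), and only the pseudogene, among these 3, had no overlap in WT.

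Hist1h2bp (chr13:21879330-21881082, + strand) was low, at 8.38, 5.92 and 7.92 TPM in WT ex vivo and 2.92, 1.52 and 2.89 with stimulation, and 9.34, 7.44 and 11.3 ex vivo and 4.92, 3.06 and 6.22 with stimulation in cKO. It was called lower in WT (-1.30 ± 0.25, adjusted p = 0.0025) and in cKO (-0.88 ± 0.25, adjusted p = 0.017), but it passed the 5 TPM minimum through the ex vivo groups alone, so these tests could only find it low after stimulation. Hist1h2ba, which encodes the testis-specific H2B and is known from developing sperm (chr13:24025637-24026025, - strand), was the 1 member that rose in cKO. It measured 3.99, 4.85 and 1.85 TPM ex vivo in WT and 2.45, 3.18 and 1.81 in cKO, and 3.64, 4.14 and 2.75 in WT and 7.50, 5.56 and 8.35 in cKO once stimulated. The 3 cKO stimulated libraries were the highest of all 12 (1.23 ± 0.29, adjusted p = 0.0062), and the gene passed the 5 TPM minimum through that group alone, so a test of it could only find it high there.

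**Figure D4:**
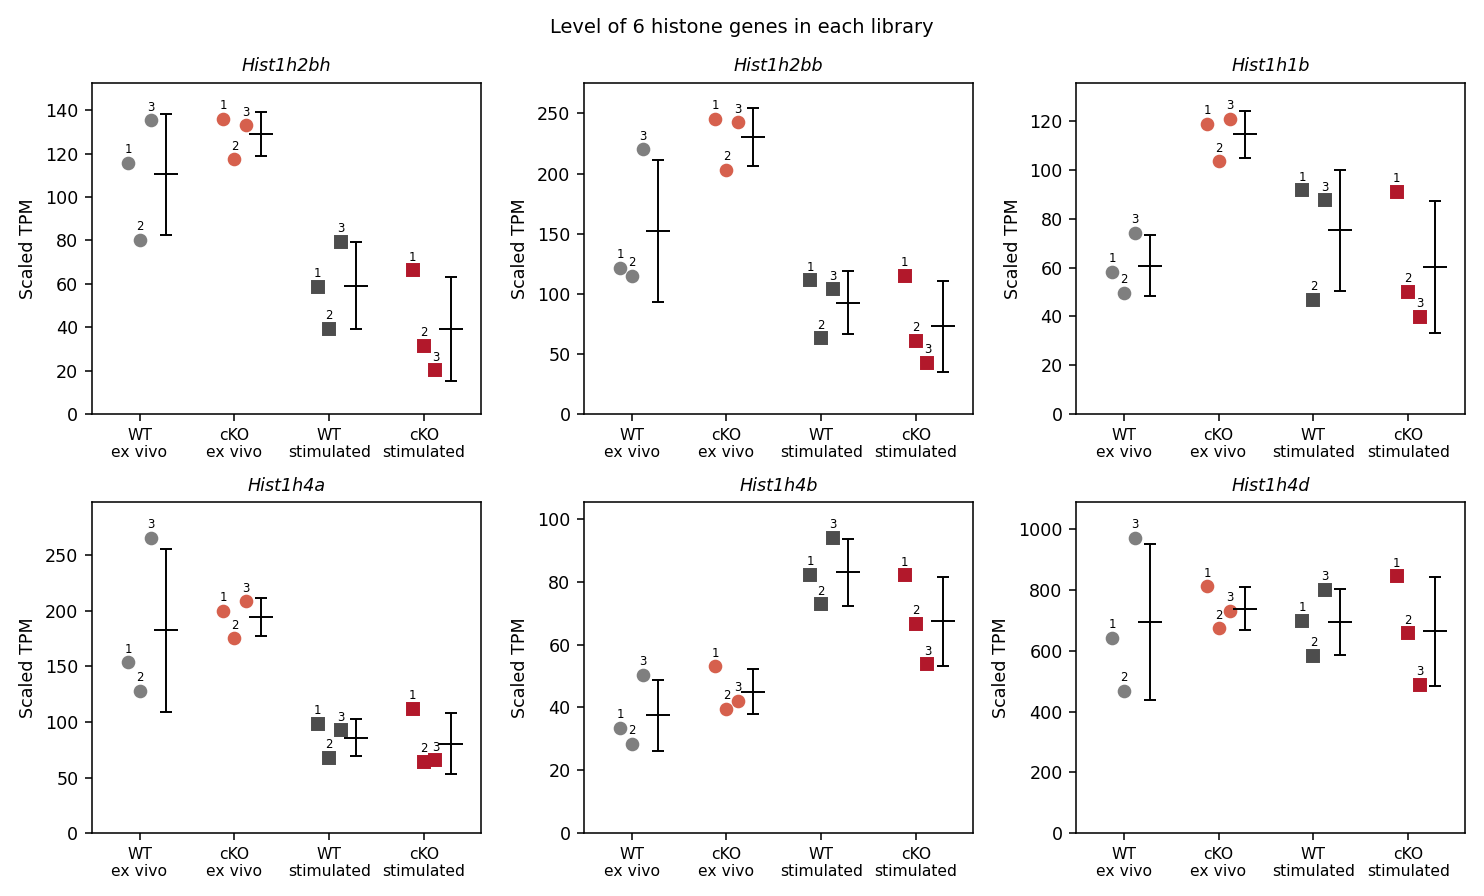
Scaled TPM (vertical axis) of Hist1h2bh, Hist1h2bb, Hist1h1b, Hist1h4a, Hist1h4b and Hist1h4d in each library, by group, with replicate numbers as points and mean ± SD (n = 3) as black bars. Hist1h2bh and Hist1h4a are lower in all 6 stimulated than in all 6 ex vivo libraries, Hist1h4b is higher in all 6, and Hist1h4d overlaps in every comparison.

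H3 genes split in their response. Hist1h3a (chr13:23853722-23854255, - strand) measured 75.4, 53.5 and 109.8 TPM in ex vivo WT Treg, 77.2, 67.1 and 82.7 in their cKO counterparts, then 47.5, 35.2 and 47.8 in WT and 55.1, 30.6 and 29.7 in cKO with stimulation. Within each genotype the states were apart, with falls of 0.81 ± 0.27 in WT (adjusted p = 0.044 in limma) and 1.01 ± 0.27 in cKO (adjusted p = 0.013). Hist1h3i (chr13:21874784-21875266, - strand) measured 37.6, 42.4 and 67.6 TPM in WT ex vivo and 37.0, 26.9 and 38.8 with stimulation, and 71.4, 56.7 and 63.7 ex vivo and 35.1, 22.7 and 22.1 with stimulation in cKO. Hist1h3d measured 15.1, 17.4 and 25.8 TPM ex vivo in WT and 28.4, 27.9 and 23.8 in cKO, and 21.4, 13.2 and 18.5 in WT and 19.6, 9.30 and 7.49 in cKO once stimulated. These genes fell in cKO by 1.26 ± 0.24 (adjusted p = 0.0018) and 1.19 ± 0.30 (adjusted p = 0.0099) and overlapped in WT.

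Hist1h3e, the highest H3 gene, measured 147, 117 and 210.2 TPM in ex vivo WT Treg, 183, 151 and 182 in their cKO counterparts, then 128, 87.1 and 124 in WT and 121, 81.9 and 78.4 in cKO with stimulation. Hist1h3f measured 71.1, 58.9 and 112 TPM in WT ex vivo and 75.3, 43.6 and 69.4 with stimulation, and 89.6, 69.0 and 72.9 ex vivo and 59.5, 35.9 and 33.1 with stimulation in cKO. Both fell in cKO (-0.89 ± 0.23, adjusted p = 0.011, and -0.87 ± 0.29, adjusted p = 0.03). Hist1h3c was not called: it measured 56.0, 50.9 and 99.3 TPM ex vivo in WT and 116, 77.1 and 98.8 in cKO, and 73.8, 34.3 and 75.8 in WT and 93.0, 29.6 and 40.3 in cKO once stimulated, where cKO stimulated library 1 overlapped the ex vivo libraries.

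On the other side, Hist1h3h (chr13:21809497-21809984, + strand) measured 14.3, 9.94 and 17.2 TPM in ex vivo WT Treg, 20.7, 13.1 and 15.4 in their cKO counterparts, then 26.6, 20.9 and 23.9 in WT and 21.6, 12.5 and 21.9 in cKO with stimulation. Hist2h3b (chr3:96072577-96073064, + strand) measured 94.2, 74.8 and 144 TPM in WT ex vivo and 166, 129 and 186 with stimulation, and 121, 127 and 128 ex vivo and 124, 90.5 and 83.8 with stimulation in cKO. Both rose in WT, by 0.77 ± 0.24 (adjusted p = 0.034) and 0.65 ± 0.23 (adjusted p = 0.049), and neither was called in cKO (0.16 ± 0.24 and -0.35 ± 0.23). The rise of Hist2h3b held in 3 of the 12 fits that left out a library, and that of Hist1h3h in 8.

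H4 genes, nearly all of which encode the same protein, included the highest value of any member and changes of opposite sign. Hist1h4d (chr13:23673467-23673859, + strand) was the highest histone gene, with 642, 468 and 971 TPM ex vivo in WT and 812, 674 and 731 in cKO, and 699, 583 and 799 in WT and 845, 657 and 488 in cKO once stimulated, or 12.6% to 19.7% of the summed histone TPM of a library. Its groups overlapped in every comparison, with changes of 0.05 ± 0.26 in WT and -0.19 ± 0.26 in cKO, the latter turning to a called rise of 0.63 after quantile normalization. Hist1h4a (chr13:23852561-23853099, - strand) measured 154, 128 and 265 TPM in ex vivo WT Treg, 199.7, 175 and 208 in their cKO counterparts, then 98.2, 67.5 and 92.4 in WT and 112, 64.1 and 65.6 in cKO with stimulation. All 6 stimulated libraries were below all 6 ex vivo libraries, with falls of 1.02 ± 0.28 in WT (adjusted p = 0.016 in limma) and 1.31 ± 0.28 in cKO (adjusted p = 0.0037). Hist1h4b (chr13:23848806-23849296, + strand), a neighbour of Hist1h4a, went the opposite way, with 33.6, 28.5 and 50.3 TPM in WT ex vivo and 82.1, 72.8 and 93.9 with stimulation, and 53.1, 39.6 and 42.2 ex vivo and 82.0, 66.6 and 53.7 with stimulation in cKO. All 6 stimulated libraries were above all 6 ex vivo libraries, by 1.16 ± 0.21 in WT (adjusted p = 0.0019), with 0.56 ± 0.21 in cKO (adjusted p = 0.051, not called). On the opposite strand, 60.9% of the exon bases of Hist1h4b are also annotated as 4930558J22Rik, and the reads were counted by strand.

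Hist1h4h (chr13:23622919-23623388, + strand) measured 103, 92.3 and 162 TPM ex vivo in WT and 152, 127 and 113 in cKO, and 237, 162 and 208 in WT and 180.2, 139 and 99.99 in cKO once stimulated. It rose in WT (0.78 ± 0.25, adjusted p = 0.035), where the groups narrowly failed to overlap, and the cKO groups overlapped (0.07 ± 0.25). The 3 other H4 genes called were lower in cKO. Hist1h4f measured 114, 103 and 204 TPM in ex vivo WT Treg, 208, 178 and 163 in their cKO counterparts, then 144, 107 and 161 in WT and 148, 89.5 and 70.4 in cKO with stimulation. Hist1h4j measured 40.2, 52.7 and 72.6 TPM in WT ex vivo and 73.6, 63.1 and 72.8 with stimulation, and 74.8, 79.3 and 76.1 ex vivo and 67.97, 45.9 and 42.1 with stimulation in cKO. Hist4h4 (chr6:136752589-136752900, - strand), unique in sequence at the read length, measured 132, 130.0 and 213 TPM ex vivo in WT and 181, 136 and 171 in cKO, and 159, 130.1 and 183 in WT and 119, 115 and 95.5 in cKO once stimulated. The cKO groups were apart for all 3, with falls of -0.89 ± 0.30, -0.58 ± 0.21 and -0.56 ± 0.20 (adjusted p = 0.033, 0.041 and 0.043), the last turning to 0.18 after quantile normalization, and each was lost in 5 or more of the 12 fits that left out a library.

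Of the other abundant H4 genes, Hist1h4c measured 240.4, 184 and 324 TPM in ex vivo WT Treg, 299, 228 and 268 in their cKO counterparts, then 283, 261 and 292 in WT and 228, 210.3 and 145 in cKO with stimulation. Hist1h4k measured 165, 155 and 254 TPM in WT ex vivo and 219.9, 182 and 242 with stimulation, and 262, 244 and 214 ex vivo and 235, 144 and 107 with stimulation in cKO. Neither was called in any comparison. In WT 12 of the 13 H4 genes had a positive estimate, Hist1h4a being the exception, but this depended on the scaling: the H4 median in WT, 0.20, ran to 0.88 after quantile normalization and, as above, below 0 with the lower filter.

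Ex vivo, no histone gene was called between cKO and WT (limma, adjusted p below 0.05), where 5.29% of all tested genes were. At an unadjusted p below 0.05 there were 3 members, Hist1h1b, Hist1h2bc and Hist1h4j, all higher in cKO, that is 5.17% against 9.99% of all tested genes. Estimates were positive for 49 of the 58 members, with a median of 0.27. The groups did not overlap, with cKO higher, for Hist1h1b, Hist1h2bj, Hist1h2bm and Hist1h4j, that is 6.9% against 11.6% of all tested genes. Hist1h1b had the largest estimate (0.92 ± 0.31, adjusted p = 0.13, between 0.0396 and 0.676 over the alternative settings), and it was called when only the 6 ex vivo libraries were fitted. The median over members was 0.49 without WT ex vivo library 3, the one with high Xist, 0.06 without WT ex vivo library 2, 0.18 without cKO ex vivo library 1 and 0.50 on TPM as deposited.

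After stimulation, no member was called between cKO and WT either (smallest adjusted p = 0.0977, Hist2h3b, in limma), where 6.93% of all tested genes were. At an unadjusted p below 0.05, 3 members were higher and 6 lower, 5.17% and 10.3% against 9.89% and 13.9% of all tested genes. The 3 cKO libraries were all above the WT libraries for Hist1h2ah, Hist1h2ba and Hist1h2bp (5.17% against 12.8%) and all below for Hist1h1c, Hist1h2ac, Hist1h4c, Hist2h2ac, Hist2h3b and Hist4h4 (10.3% against 18%). The median over members was -0.38, and it was -0.20 without cKO stimulated library 3, -0.62 without cKO stimulated library 1, -0.65 on TPM as deposited and -0.66 with genes down to 1 TPM or with no filter. Hist1h2ag had the lowest estimate, -1.18 ± 0.50 (adjusted p = 0.19), and Hist1h2ah and Hist1h2ba the highest, both 0.85. The SE of a genotype difference was 0.18 to 0.50 over the 58 members, in either state.

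**Figure D5:**
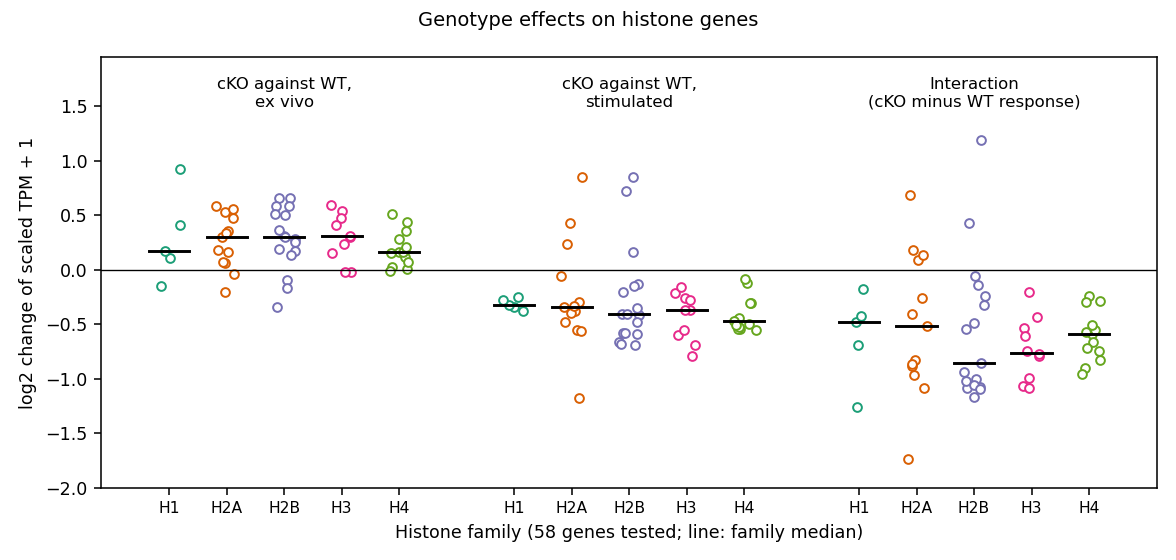
Change of the tested histone genes between cKO and WT (log2, vertical axis) ex vivo and after stimulation, and the interaction (cKO minus WT response), by family. Each point is a gene and each line the family's median; over all members the median is 0.27 ex vivo and -0.38 after stimulation, and no point was called at an adjusted p below 0.05.

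Promoters of these genes are shown because neighbours that encode the same protein moved apart. RefSeq promoter windows (GRCm38.p6, 250 bases before to 50 after the start) were matched for 60 members and searched on both strands for the CCAAT box, for TATAAA of the TATA box, for the octamer ATTTGCAT of H2B promoters, for AAACACA of the H1 box and for TGGGAA, a core to which Ikaros binds. The 160 bases before the annotated start are printed 5′ to 3′ on the gene's strand, with CCAAT (or ATTGG, its complement), ATTTGCAT and TATAAA in capitals. Hist1h2bb and Hist1h2bg fell on stimulation in cKO, and Hist1h4a fell in both genotypes. Hist1h4b rose in WT and was not called in cKO, and Hist1h4d was the highest member.
Hist1h2bb (H2B, chr13:23746574-23746733, +): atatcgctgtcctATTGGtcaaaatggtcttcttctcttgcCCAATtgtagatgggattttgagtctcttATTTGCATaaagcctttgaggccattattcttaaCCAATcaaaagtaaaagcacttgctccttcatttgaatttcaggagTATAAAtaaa
Hist1h2bg (H2B, chr13:23571240-23571399, +): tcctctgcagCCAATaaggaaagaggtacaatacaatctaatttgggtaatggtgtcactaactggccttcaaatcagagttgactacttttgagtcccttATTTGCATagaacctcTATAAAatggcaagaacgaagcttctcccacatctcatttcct
Hist1h4a (H4, chr13:23761250-23761409, -): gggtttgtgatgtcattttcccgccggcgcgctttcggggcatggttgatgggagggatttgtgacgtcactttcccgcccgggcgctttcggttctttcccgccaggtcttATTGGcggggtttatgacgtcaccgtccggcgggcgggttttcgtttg
Hist1h4b (H4, chr13:23756777-23756936, +): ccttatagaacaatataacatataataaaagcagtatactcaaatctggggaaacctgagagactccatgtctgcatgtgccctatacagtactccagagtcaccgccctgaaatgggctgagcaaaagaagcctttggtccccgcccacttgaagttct
Hist1h4d (H4, chr13:23581408-23581567, +): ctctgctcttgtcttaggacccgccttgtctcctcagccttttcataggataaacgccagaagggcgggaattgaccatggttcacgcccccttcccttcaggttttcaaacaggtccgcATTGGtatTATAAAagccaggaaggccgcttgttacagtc
CCAAT was found in 51 of the 60 windows, against 37.4% of the 32851 promoters of all genes, and in every H1, H2A, H2B and H3 window. Only 3 of 12 H4 windows held it, those of Hist1h4a, Hist1h4c and Hist1h4d. TATAAA stood in 58.3% of members against 13.6% of all promoters, and the octamer in 21.7% against 1.74%, all of them H2A or H2B genes. AAACACA stood in 15% against 7.18%, with 5 of the 6 H1 genes among them, and TGGGAA in 20% against 25.6%.

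The members' responses are set beside those letters as a description. Of the 6 tested H2B genes with the octamer, 5 fell and 1 rose in stimulated cKO Treg (median -1.29), and of the 8 without it all 8 fell (median -1.21). Among H4 genes, the 3 with CCAAT had a median of -0.46 in cKO and 0.05 in WT, and the 9 without it -0.15 and 0.37. Of the 10 tested members with TGGGAA, 4 fell and 1 rose in cKO, and of the 42 without it 25 fell. The window of Hist1h4b held none of the 3 capitalised motifs in the 160 bases printed.

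Genes that act on histone mRNA were measured alongside. Of 14 tested regulators, stimulation raised 2 and lowered 3 in WT, and raised 2 and lowered 5 in cKO. The shares called over all tested genes, for this and the following lists, were 12.7% higher and 19.3% lower in WT and 17.3% and 26.5% in cKO, so the WT count lies near the background. Slbp, the stem-loop binding protein, measured 14.9, 17.7 and 19.1 TPM ex vivo in WT and 16.3, 15.0 and 17.5 in cKO, and 11.7, 10.3 and 9.95 in WT and 9.50, 11.1 and 9.23 in cKO once stimulated. It fell in both genotypes, by 0.64 in WT (adjusted p = 0.00117 in limma) and 0.66 in cKO (adjusted p = 0.000812), with every stimulated library below every ex vivo library. Npat measured 15.6, 14.0 and 14.6 TPM in ex vivo WT Treg, 19.6, 16.7 and 17.8 in their cKO counterparts, then 14.6, 16.9 and 16.7 in WT and 13.7, 15.3 and 12.7 in cKO with stimulation, with a called fall of 0.35 in cKO (adjusted p = 0.0125) and a higher estimate in stimulated WT (0.11, not called). Lsm10 and Lsm11, the proteins particular to the U7 snRNP, rose in WT (0.66 and 0.62) and in cKO (0.72 and 0.91), and Cpsf3, the nuclease that cuts histone pre-mRNA, fell by 0.79 in cKO. Between genotypes 1 of the 14 was called, Cpsf3 after stimulation (-0.33), where 6.93% of all tested genes were called, and none by interaction.

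Replication-independent histone variants are made outside S phase too and carry poly(A) tails. Of 9 tested, 4 fell in WT, 6 fell in cKO and none rose, with H3f3b, a gene of variant H3.3, at -1.67 and -1.56, H2afz at -0.64 and -0.75, and the centromeric H3 Cenpa at -0.63 and -0.81. H1f0, the linker histone of resting cells, was the 1 variant called between genotypes, higher in cKO ex vivo (1.53, adjusted p = 8.8e-05) and after stimulation (0.88). Of 17 histone chaperones 9 fell in WT, Nasp by 0.76, Daxx by 0.57 and Atrx by 0.56, and 13 fell in cKO, Atrx by 0.99, Asf1b by 0.76 and Hjurp by 0.65, and none rose. Between genotypes 1 of the 17 was called, lower in cKO after stimulation, where 6.93% of all tested genes were called. Ex vivo and by interaction 0 were called.

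S phase and proliferation genes were measured for the same libraries. The summed level of 28 such genes lay between 426 and 526 TPM ex vivo in WT and 513 and 572 in cKO, and after stimulation between 303 and 346 in WT and 287 and 312 in cKO, so the states did not overlap. Of 24 tested, 7 fell and 1 rose in WT (median -0.24), and 18 fell and none rose in cKO (median -0.54), against 19.3% and 26.5% of all tested genes called lower, and none was called between genotypes or by interaction. Their estimates between genotypes ex vivo were positive for 23 of 24 (median 0.30), and those of the interaction negative for 22 of 24 (median -0.37). Pcna, the replication clamp, fell by 2.06 in WT and 1.94 in cKO, and Mcm3, of the replicative helicase, by 0.85 and 1.19. Mki67, which marks cycling cells, measured 27.3, 25.5 and 28.04 TPM in WT ex vivo and 25.0, 14.4 and 27.99 with stimulation, and 50.9, 45.2 and 50.1 ex vivo and 24.7, 13.6 and 13.1 with stimulation in cKO. The 3 cKO ex vivo libraries were the highest of all 12 for Mki67, as they were for Hist1h1b, with a fall of 1.51 in cKO on stimulation (adjusted p = 0.000832). Ex vivo its estimate was higher in cKO than in WT (0.83, adjusted p = 0.0917, not called). The part of proliferating cells in the members' changes was not tested.

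Read assignment bears on values of single members. A run of 51 bases, the read length, occurs once in the genome at a median of 53.0% of the positions in a member's exons, at under 50% in 31 members, and at none in Hist1h2bq, Hist1h2br, Hist2h2aa1 and Hist2h2aa2. How reads with several matches were treated is not given in the sources used here, so values of near-identical members are uncertain. Family medians of that share were 97.7% for H1, 57.1% for H4, 50.4% for H2B, 41.2% for H3 and 39.7% for H2A. Of the tested members with at least 95% unique positions, Hist1h1a, Hist1h1b, Hist2h2bb and Hist4h4 fell in cKO, and Hist1h1d (-0.09), Hist2h2be (0.12), Hist2h4 (0.01) and Hist3h2a (-0.44) were not called. Most members are short, with 41 of the 68 at up to 600 nt of exon. Over the 3078 other tested genes of that length the median change was 0.17 on stimulation in WT and 0.52 in cKO, opposite in sign to the members' medians. The 10 members not tested (Hist1h1t, Hist1h2aa, Hist1h2aj, Hist1h2al, Hist1h2bq, Hist1h2br, Hist2h2aa1, Hist2h2aa2, Hist2h3c1 and Hist2h3c2) lay between 0 and 5.18 deposited TPM in single libraries. The 14 tested members that were neither called nor among the 3 highest of their family had means of 4.40 TPM (Hist2h2be) to 124 TPM (Hist1h4m) over the 12 libraries. Their estimates on stimulation ran from -0.58 (Hist3h2a) to 1.15 (Hist1h3g) in WT and from -1.02 (Hist1h2an) to 0.72 (Hist2h2ab) in cKO.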

How the data were processed

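Total CD4+ cells were prepared from individual mice and YFP+ Treg sorted, so replicates were separate animals. Per the labels and the study's methods, the authors depleted ribosomal RNA, made strand-specific libraries, read 51 bp paired ends, aligned them with STAR 2.6.0c to mm9, counted reads over Ensembl v67 exons with htseq-count 0.6.1 on the reverse strand and removed rRNA genes. The authors deposited TPM (used here as a length-corrected signal) and its log2; how TPM was made from counts is not given in the sources used here. A second deposited table holds the authors' own edgeR comparisons and was not used. The 2 deposited columns together gave back whole reads for 99.9977% of 434664 values (tolerance 0.01 read); these served for depth only and no count test was run. The deposited log2 values were not tested as such.

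TPM were scaled by trimmed means of M values, unweighted (30% of M and 5% of A trimmed), over the 13318 genes with a group mean of at least 5 TPM. Log2(TPM + 1) was fitted in limma 3.58.1 (R 4.3.3) over 12 libraries and 4 groups with a mean-variance trend, two-sided, with Benjamini-Hochberg adjustment within each of 5 comparisons (threshold 0.05). The script was tested on simulated data. Positions are NCBIM37 with GENCODE vM1, promoters RefSeq on GRCm38.p6. Members and lists were chosen with earlier results of these data known. Members named with values in each library were the 38 called in any comparison and the 3 highest of each family, 44 in all; of other lists, up to 3 called genes with the largest change, with Npat, Slbp and Mki67. Alternatives changed the filter, pseudocount, scaling, libraries and a replicate block. Other tools were Python 3.11.15, numpy 2.4.6, pandas 2.3.3, scipy 1.17.1 and matplotlib 3.10.9.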

Additional observations from a re-analysis of the deposited data

How the results depend on the processing

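Histone genes called on stimulation in WT (11) numbered 2 with genes down to 1 TPM or with no filter, 4 on TPM as deposited and 17 after quantile normalization, and 4 to 13 over the fits that left out a library. In cKO (33) they numbered 19 after quantile normalization and 16 to 36 over the left-out libraries. Between genotypes 1 was called ex vivo with only the 6 libraries fitted, and after stimulation 1 under quantile normalization, 1 under the replicate block, and 0 to 1 over the left-out libraries. The members' median in WT turned to 0.053 under quantile normalization and ran from -0.345 to 0.066 over the left-out libraries. In cKO it was -1.28 with the 1 TPM filter, over the 65 members then tested (-1.36 over the 58), and -0.47 under quantile normalization, and for the interaction -1.15 on deposited TPM.

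All genes called ex vivo between genotypes (704) numbered 57 with the 1 TPM filter, 56 with none, 273 on deposited TPM, 310 with 6 libraries and 331 to 740 over the left-out libraries. After stimulation (923) they numbered 68, 68, 306, 546 and 424 to 990, and 1579 under quantile normalization. On stimulation in WT (4262) they numbered 1838, 1694 and 1943 in the first 3 of these settings. For the interaction (147) they numbered 0, 0 and 67, 392 under quantile normalization, 65 under the replicate block and 56 to 208 over the left-out libraries. With the 1 TPM filter the median of the 13318 genes lay at -0.50 in cKO stimulation, against -0.01. The share of calls that were higher was 39.6% in WT and 39.5% in cKO, 16.5% and 12.8% with that filter, 17.9% and 12.7% with none, 60.5% and 11.9% on deposited TPM, and 51.8% in WT under quantile normalization.

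Among genes called either way, quantile normalization turned Hist1h1c (0.20) and Supt16h (0.20) in WT, and in cKO Hist1h1e (0.63), Hist1h4d (0.63), Hist4h4 (0.18), Sympk (0.16), Srrt (0.054), H2afy (0.17), Nap1l4 (0.18) and Mcm6 (0.083). Among members not called either way it also turned, in cKO, Hist1h4c (0.28), Hist1h4k (0.12), Hist1h1d, Hist1h4i, Hist1h4m, Hist1h4n, Hist2h2ac, Hist2h3b and, downward, Hist2h2be. The summed TPM of cKO ex vivo averaged 6273 as deposited and 5660 scaled. The causes were not tested. Same-numbered libraries correlated at -0.21 to 0.26 in their deviations over all pairs of groups, so no pairing common to all groups showed. Between WT ex vivo and cKO ex vivo the same numbers gave 0.15, 0.26 and 0.08, against -0.18 to 0.06 for different numbers. Whether those libraries share a batch by number was not tested. The replicate block gave 12 members in WT, 36 in cKO and 0 ex vivo and by interaction.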
